A study of Mus musculus with 24 samples.

Results

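Expression of 3 metallothionein genes, Mt1, Mt2 and Mt3, and of the zinc exporter gene Slc30a1 was followed in mouse cortex 1 day after a transient stroke. These 4 genes were chosen by symbol from the 14769 genes listed in any of the 4 tables of the series, and each of them is listed in every table. The stroke was a transient middle cerebral artery occlusion (tMCAo), in which a filament closes the artery for 1 h and is then withdrawn so that blood returns. Total RNA was sequenced in 24 libraries after depletion of ribosomal RNA. The animals were male mice 3 to 4 months of age, wild type (WT) or lacking the circular RNA ciRS-7, also named Cdr1as (ciRS-7 KO). The strain is labelled C57BL/6N-Cdr1asem1Nikr for all animals, the WT ones included. Each animal gave 2 cortex samples, which the labels call CL and PI and do not spell out. Side and genotype gave 4 groups (CL and PI of WT, CL and PI of KO), all of them after tMCAo, with 6 libraries each from 6 separately numbered animals per genotype, and no group without the operation was used. Samples are pieces of cortex with all their cell types, so fewer cells of a type and less RNA per cell cannot be told apart.

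Metallothioneins are small proteins very rich in cysteine that hold zinc and copper ions in clusters of thiolates. Mt1 and Mt2 are made in many tissues, in the brain mostly by astrocytes, and their genes are switched on by zinc through the metal-sensing transcription factor MTF-1, and also by glucocorticoids, by interleukin-6 signalling through STAT3 and by oxidative stress. Mt3 is a form found mainly in the nervous system, also known as growth inhibitory factor, and it responds little to metals. Slc30a1 encodes ZnT1, the transporter that moves zinc out of the cell across the plasma membrane, and its gene is a target of MTF-1 too.

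In the mouse build GRCm38 with GENCODE release M21, the metallothionein genes lie in a row on the plus strand of chromosome 8. Mt3 (ENSMUSG00000031760) runs from 94152607 to 94154146, Mt2 (ENSMUSG00000031762) from 94172664 to 94173568 and Mt1 (ENSMUSG00000031765) from 94179082 to 94180327. Mt2 ends 5513 bases before Mt1 begins, and 18.5 kb separate Mt3 from Mt2. Their main transcripts have 3 exons each and are short, with 549 bases in Mt1, 511 in Mt2 and 536 in Mt3. Slc30a1 (ENSMUSG00000037434) lies on the plus strand of chromosome 1 from 191906767 to 191913247, with 2 exons and a transcript of 5244 bases. The coding sequences of Mt1 and Mt2 are printed here because they show how alike the pair is and where reads could tell the genes apart. Both have 183 bases, and capitals mark the 38 bases at which they differ.
Mt1: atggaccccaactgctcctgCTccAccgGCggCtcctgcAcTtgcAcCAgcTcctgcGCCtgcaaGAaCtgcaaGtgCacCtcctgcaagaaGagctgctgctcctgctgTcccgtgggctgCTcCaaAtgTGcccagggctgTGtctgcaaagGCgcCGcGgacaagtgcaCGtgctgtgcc
Mt2: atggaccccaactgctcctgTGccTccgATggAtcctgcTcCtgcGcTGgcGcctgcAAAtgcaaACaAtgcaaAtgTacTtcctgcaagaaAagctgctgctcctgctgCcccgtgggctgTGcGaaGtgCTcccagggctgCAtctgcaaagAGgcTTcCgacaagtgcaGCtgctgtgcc
The pair is identical at 79.2% of these bases, and of the 61 codons 20 encode cysteine in each gene. The longest run of bases that the main transcripts of Mt1 and Mt2 share is 20 bases. No stretch of 50 bases of Mt1 or Mt3 was found in a transcript of any other gene. Of the 50-base stretches of Mt2, 45.5% also lie in Gm45774, an annotated antisense gene that overlaps its exons and has no row in the tables used. Whether the counting used strand is not given in the sources used here, so reads of Mt2 and of this antisense gene could not be told apart if it did not. For Slc30a1 the share was 8.08%, with the antisense gene 1700034H15Rik.

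The sequence before each gene is shown next to look for the metal response element, the site MTF-1 binds. The windows come from RefSeq for GRCm38.p6, with 250 bases before and 50 bases after the start annotated there. For Mt1, Mt2 and Slc30a1 this start differs from the GENCODE gene start given above. All 4 members had a window. Capitals mark each match to the core of the element, TGCACNC or TGCGCNC, searched on both strands; a match on the minus strand appears as its reverse complement.
Mt1, chr8:94178839-94179138, plus strand: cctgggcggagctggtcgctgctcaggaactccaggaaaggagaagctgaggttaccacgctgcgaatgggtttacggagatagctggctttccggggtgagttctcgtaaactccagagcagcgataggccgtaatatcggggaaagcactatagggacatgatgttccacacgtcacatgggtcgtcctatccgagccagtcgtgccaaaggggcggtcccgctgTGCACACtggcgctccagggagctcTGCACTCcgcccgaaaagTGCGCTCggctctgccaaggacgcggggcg
Mt2, chr8:94172368-94172667, plus strand: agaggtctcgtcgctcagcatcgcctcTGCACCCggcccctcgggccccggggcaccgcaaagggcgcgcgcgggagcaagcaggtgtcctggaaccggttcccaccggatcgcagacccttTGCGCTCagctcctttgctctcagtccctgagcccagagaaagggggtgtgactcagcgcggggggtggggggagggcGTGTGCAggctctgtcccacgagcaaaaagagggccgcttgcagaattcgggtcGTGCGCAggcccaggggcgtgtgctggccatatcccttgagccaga
Mt3, chr8:94152357-94152656, plus strand: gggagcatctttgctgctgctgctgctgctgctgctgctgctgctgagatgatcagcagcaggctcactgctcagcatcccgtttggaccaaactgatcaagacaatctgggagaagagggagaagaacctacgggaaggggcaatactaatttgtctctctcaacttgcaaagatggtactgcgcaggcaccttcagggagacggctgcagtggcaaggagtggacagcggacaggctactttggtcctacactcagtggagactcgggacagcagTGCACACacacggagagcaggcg
Slc30a1, chr1:191906531-191906830, plus strand: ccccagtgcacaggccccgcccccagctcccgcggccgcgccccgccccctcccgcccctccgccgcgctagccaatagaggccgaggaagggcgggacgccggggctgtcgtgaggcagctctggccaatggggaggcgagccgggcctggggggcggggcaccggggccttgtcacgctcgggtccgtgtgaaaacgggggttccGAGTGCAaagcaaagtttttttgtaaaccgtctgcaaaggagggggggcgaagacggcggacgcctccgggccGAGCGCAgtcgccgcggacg
Mt2 held 4 matches, and 0.517% of the 32851 promoter windows of the table hold as many. Mt1 held 3 matches (as many in 1.97% of windows), Slc30a1 held 2 (7.11%) and Mt3 held 1 (25.7%). The core of the antioxidant response element, TGACNNNGC on either strand, matched 1 time in Mt2 and 1 time in Slc30a1 without touching a metal response element core, and was absent from the windows of Mt1 and Mt3. At least 1 such match is present in 12.4% of all windows. These are matches of letters and do not show binding. Bases outside the windows were not searched, so the counts depend on where the annotated start lies. An element beyond a window would be missed.

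The values are log2 CPM, the base-2 logarithm of counts per 1000000 reads (CPM). Library depth, read from the spacing of low values, was 5.27 to 10.5 M reads (M, 1000000) with a median of 6.93 M, so 3 reads correspond to 0.286 to 0.570 CPM. In the KO against WT tables, the deposited values of Cdr1as were 2610 to 3801 CPM in WT. In KO they were no more than 0.166 CPM, under the level of 3 reads. In every gene and group the 2 lowest values are tied at the lower quartile and the 2 highest at the upper quartile. The lowest and highest values of Cdr1as above and of the genes below are these tied values. The true extreme library of a group lies beyond them, so a single deviating library would not be seen. Means are trimmed means of the 4 inner values recovered from the quartiles, and the error after each is its standard error (SE). Each table was scaled on its own, so groups are compared only within a table.

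Mt1 and Mt2 rose in PI in both genotypes. For Mt1 the WT libraries stood at 4.92, 5.02 and 5.10 log2 CPM in CL (lowest, median and highest) and at 6.07, 6.23 and 6.43 in PI. The deposited values of CL and PI did not overlap. At the estimated depths, the deposited values correspond to 183 to 272 reads per library in CL and 446 to 792 in PI. These are not counted reads, since tied values are included. The trimmed means were 5.01 ± 0.06 in CL and 6.24 ± 0.13 in PI (SE, n = 6 each), or 32.3 and 75.8 CPM. The difference was 1.23 ± 0.11 on the log2 scale (95% interval 0.99 to 1.47), a 2.35-fold higher level (1.99 to 2.77) with an adjusted p of 3.69e-05 in the moderated trimmed-mean test. In KO, Mt1 stood at 4.84, 4.99 and 5.12 log2 CPM in CL and at 6.10, 6.21 and 6.34 in PI, again without overlap of the deposited values. That difference was 1.24 ± 0.11 (1.00 to 1.47), a 2.36-fold higher level (2.0 to 2.78) with an adjusted p of 3.42e-05.

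Mt2 had the larger differences of the pair, though the genes were not tested against each other. In WT it stood at 4.33, 4.41 and 4.63 log2 CPM in CL and at 6.13, 6.33 and 6.54 in PI. The deposited PI values lay above all CL values, and the 2 PI libraries tied at the bottom came from animals 2 and 5, the same animals whose CL libraries were tied at the bottom. The trimmed means were 4.46 ± 0.11 and 6.33 ± 0.14 (SE, n = 6 each), or 22.0 and 80.5 CPM. The difference was 1.87 ± 0.14 (95% interval 1.58 to 2.17), a 3.67-fold higher level (2.98 to 4.51) with an adjusted p of 7.66e-06. In KO it stood at 3.90, 3.97 and 4.17 log2 CPM in CL and at 6.30, 6.36 and 6.43 in PI. The PI values lay closer together than those of Mt2 in the other 3 groups. The difference was 2.35 ± 0.10 (2.13 to 2.57), a 5.11-fold higher level (4.39 to 5.95) with an adjusted p of 5.36e-08. In the KO comparison 1 gene of the 14338 tested had a smaller p than Mt2.

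Mt3 was not called in either genotype. In WT it stood at 3.91, 4.18 and 4.38 log2 CPM in CL and at 4.26, 4.43 and 4.63 in PI, and the groups overlapped. The difference of 0.28 ± 0.17 (95% interval -0.08 to 0.65) was not called, with an adjusted p of 0.340. The same animal's deposited PI value was above its CL value in 6 of 6 WT animals, by 0.10 to 0.38. A value tied at a quartile is not the library's own, so such counts do not give each animal's change. With limma on the deposited values, whose spread is too small, the adjusted p was 0.0295, and 0.000666 with the animal as a replicate block. In KO the libraries stood at 4.24, 4.26 and 4.40 in CL and at 4.20, 4.33 and 4.38 in PI, with overlap. The difference there was 0.00 ± 0.10 (-0.22 to 0.22, adjusted p = 0.987), and the deposited values of 2 of 6 animals were higher in PI.

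Slc30a1 was not called in either genotype. In WT it stood at 5.26, 5.36 and 5.47 log2 CPM in CL and at 5.28, 5.34 and 5.39 in PI. In KO it stood at 5.26, 5.31 and 5.40 in CL and at 5.18, 5.25 and 5.40 in PI. The groups overlapped in both genotypes. The deposited values, tied ones included, were higher in PI in 3 of 6 WT animals and 2 of 6 KO animals. The differences were -0.02 ± 0.08 in WT (95% interval -0.20 to 0.15, adjusted p = 0.900) and -0.04 ± 0.09 in KO (-0.24 to 0.15, adjusted p = 0.819). The lower end of the wider interval, -0.24, bounds a fall of the exporter and 0.15 bounds a rise.

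**Figure D1:**
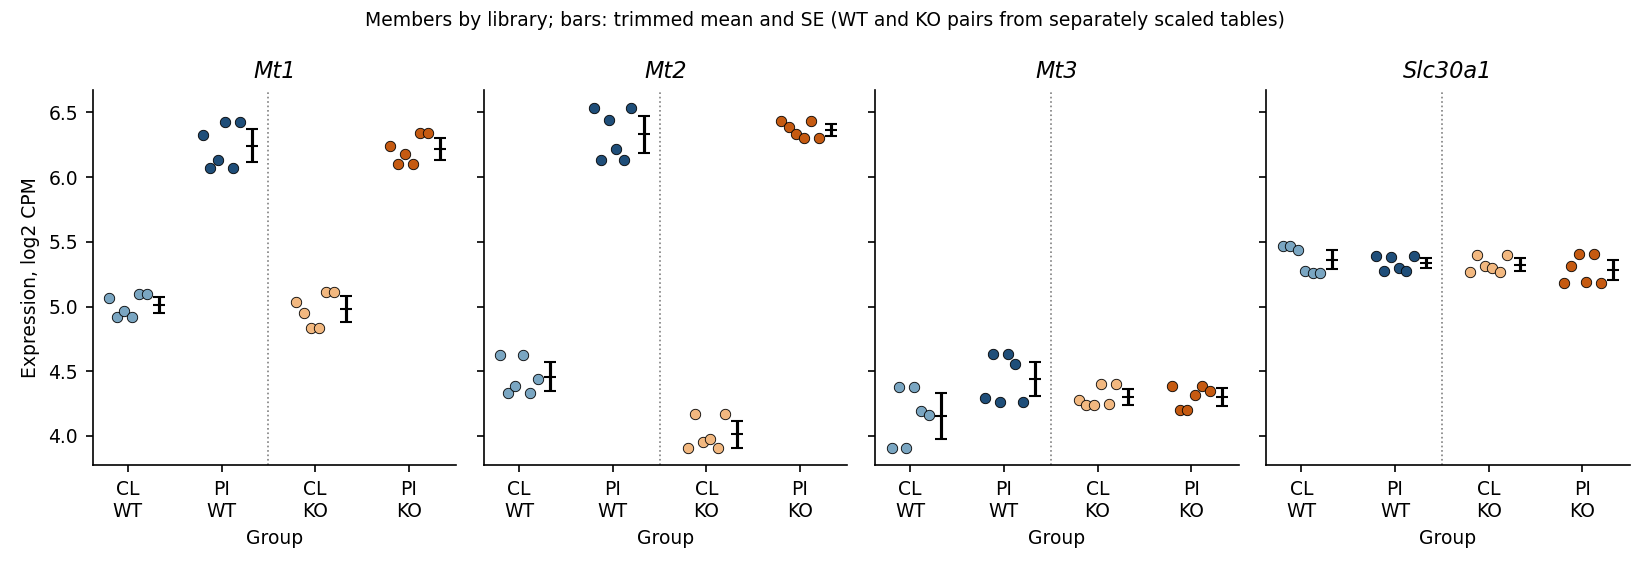
Expression (log2 CPM, vertical axis) of Mt1, Mt2, Mt3 and Slc30a1 in CL and PI of WT and KO; points are the 6 libraries of a group as deposited, and bars give the trimmed mean and its SE. The PI points of Mt1 and Mt2 start at 6.07 and all their CL points end at or below 5.12, while the points of Mt3 and Slc30a1 overlap between CL and PI; the dotted line separates values from 2 separately scaled tables.

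Read against all genes, 2 of the 4 members were called in PI WT against CL WT, where 10.6% of the 14489 genes tested were called (5.2% higher and 5.4% lower). In PI KO against CL KO the same 2 of 4 were called, where 10% of the 14338 genes were (5.11% higher and 4.94% lower). Deposited values did not overlap between the groups in 32.8% and 34.3% of genes in these comparisons. The WT fit placed 74 genes above Mt2 and 179 above Mt1 by size of the log2 difference. In KO 46 genes were above Mt2 and 171 above Mt1. With the animal as a replicate block in limma on the deposited values, the calls over all genes numbered 6614 in WT and 6759 in KO, against 1537 and 1440 in the trimmed-mean test. Centring each group on its median gene lowered every log2 difference by 0.033 in WT and 0.035 in KO, and the share of calls that were higher went from 49.1% to 37.7% and from 50.8% to 36.7%.

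**Figure D2:**
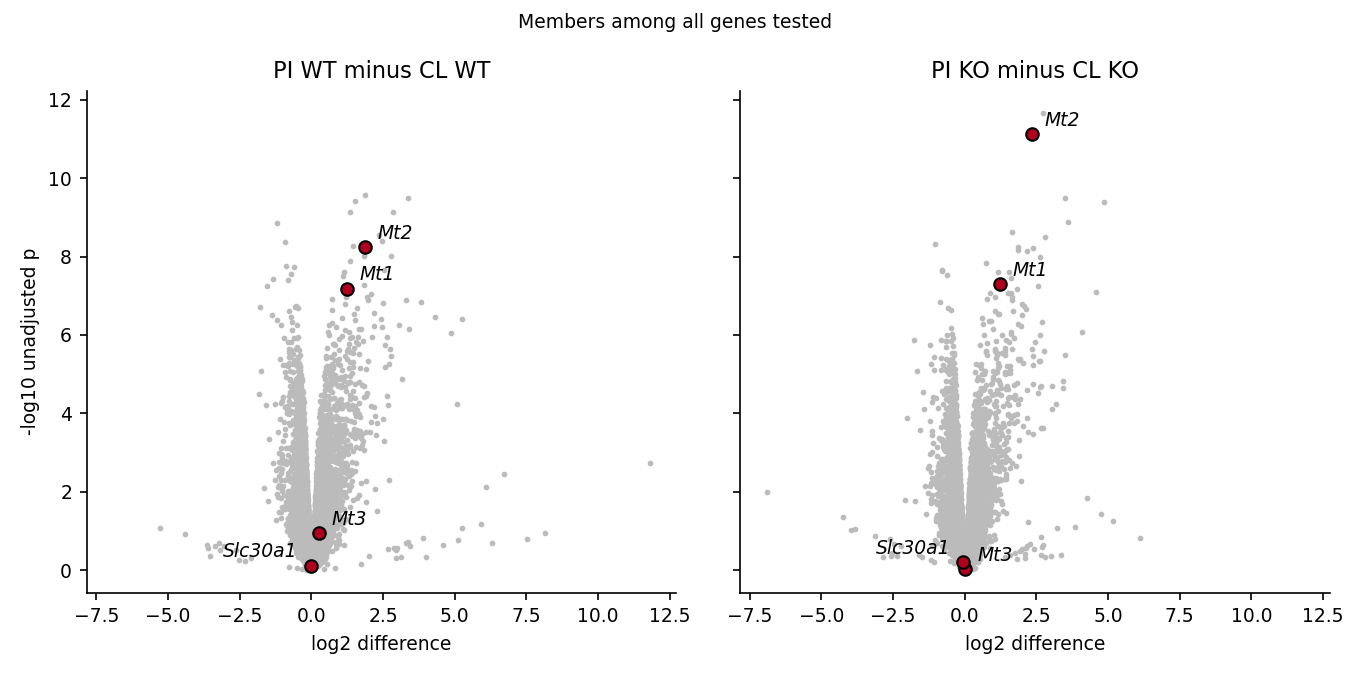
Each grey point is a gene, placed by its log2 difference between PI and CL (horizontal axis) and by -log10 of its unadjusted p in the trimmed-mean test (vertical axis), for WT on the left and KO on the right; the members are in red. Mt2 and Mt1 stand high on the right in both panels, at 1.87 and 1.23 in WT and at 2.35 and 1.24 in KO, and Mt3 and Slc30a1 lie near the bottom.

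Because transcripts differ in length, levels of different genes are compared as CPM per kb of the main transcript. For transcripts this short the usable length is shorter and was not corrected for. All annotated exons of a gene together cover 1246 bases in Mt1, 588 in Mt2 and 1066 in Mt3. Which exons were counted is not given. The order and overlaps of the metallothioneins below therefore hold only for the main transcript lengths and could reverse with the longer ones. In CL WT the order was Mt1 at 58.8, Mt2 at 43.0, Mt3 at 33.3 and Slc30a1 at 7.84 CPM per kb. In PI WT it was Mt2 at 158, Mt1 at 138, Mt3 at 40.5 and Slc30a1 at 7.70. The libraries of Mt1 and Mt2 overlapped on this scale in PI WT, from 6.94 to 7.30 for Mt1 and from 7.10 to 7.51 for Mt2 in log2 CPM per kb, and did not overlap in CL WT, nor did those of Mt2 and Mt3 there (5.30 to 5.60 and 4.81 to 5.28). In CL KO Mt1 stood at 57.5 CPM per kb, Mt3 at 36.8, Mt2 at 31.6 and Slc30a1 at 7.63. In PI KO Mt2 stood at 161 CPM per kb, Mt1 at 136, Mt3 at 36.9 and Slc30a1 at 7.41. In PI KO the deposited values of Mt1, from 6.97 to 7.21 in log2 CPM per kb, and of Mt2, from 7.27 to 7.40, did not overlap. In CL KO Mt2, at 4.87 to 5.14, lay below Mt3, at 5.14 to 5.30, with the ends of the deposited values nearly touching. The ratio of Mt2 to Mt1 in CPM went from 0.681 in CL to 1.06 in PI in WT and from 0.511 to 1.11 in KO. The sum of the 3 metallothioneins went from 72.1 to 178 CPM in WT and from 67.4 to 177 CPM in KO. Neither the order nor these ratios and sums were tested.

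Between genotypes no member was called. In PI KO against PI WT, where 0.0208% of 14452 genes were called, the differences were -0.02 for Mt1 (95% interval -0.28 to 0.24), 0.04 for Mt2 (-0.22 to 0.30), -0.13 for Mt3 (-0.40 to 0.15) and -0.05 for Slc30a1 (-0.24 to 0.14), with adjusted p from 0.910 to 0.989. For all 4 members the deposited values of the groups overlapped. In CL KO against CL WT, where 0.0279% of 14323 genes were called, Mt1 differed by -0.02 (-0.25 to 0.20), Mt3 by 0.15 (-0.17 to 0.48) and Slc30a1 by -0.03 (-0.21 to 0.15), with adjusted p from 0.950 to 0.993. Mt2 was the member with the largest gap. In the table of these groups it stood at 4.30, 4.38 and 4.59 log2 CPM in CL WT and at 3.88, 3.94 and 4.14 in CL KO, without overlap of the deposited values, as in 13.5% of genes of that table. The trimmed means were 4.42 ± 0.11 and 3.99 ± 0.10 (SE, n = 6 each). The difference was -0.44 ± 0.13 (95% interval -0.72 to -0.16), and its unadjusted p of 0.00479 became an adjusted p of 0.638, so it was not called in the trimmed-mean test. With limma on the deposited values the adjusted p was 0.00119. When 1 animal number was left out, the difference ran from -0.56 to -0.32.

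The change from CL to PI was then compared between genotypes, where 0% of 14211 genes were called (646 genes had an unadjusted p under 0.05, and limma on the deposited values called 1940). Mt2 rose by 0.48 ± 0.18 more in KO than in WT (95% interval 0.09 to 0.86), with an unadjusted p of 0.0171 and an adjusted p of 0.992 in the trimmed-mean test and of 0.00357 with limma on the deposited values (0.0512 with the animal as a replicate block). This value rests on the same CL libraries as the difference in CL and is no separate support for it. For Mt1 the difference of the changes was 0.01 (-0.34 to 0.36), for Mt3 -0.28 (-0.72 to 0.16) and for Slc30a1 -0.02 (-0.28 to 0.24), with adjusted p from 0.992 to 0.999. For Mt3 the adjusted p was 0.101 with limma on the deposited values and 0.0124 with the block added.

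**Figure D3:**
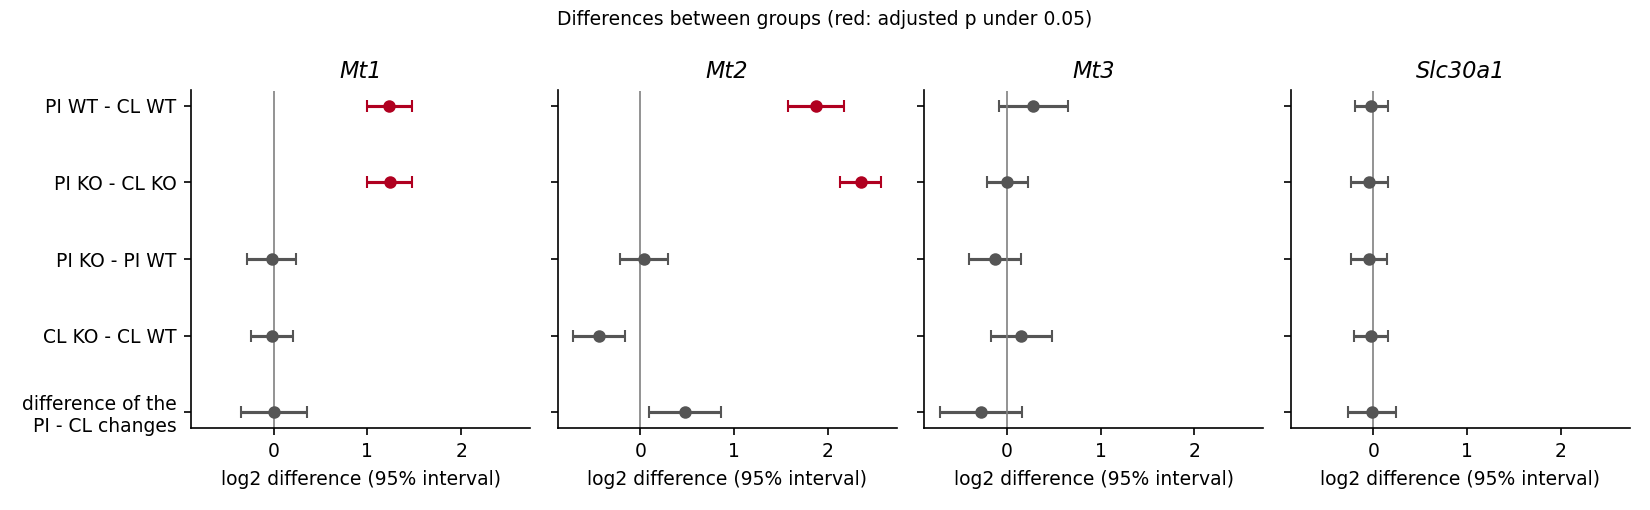
Log2 differences (horizontal axis) with their 95% intervals for each member in the 4 comparisons and in the difference of the PI to CL changes, KO minus WT; red points had an adjusted p under 0.05. Red points appear for Mt1 and Mt2 in the upper 2 rows only, from 1.23 to 2.35, and the Mt2 interval in CL KO against CL WT runs from -0.72 to -0.16 without being called.

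The SLC30 family moves zinc out of the cytosol, to the outside or into organelles, and 8 of its 10 genes were listed. No exporter was called higher in PI. Of all genes, 5.2% were called higher and 5.4% lower in WT, and 5.11% and 4.94% in KO. Slc30a3, which encodes ZnT3, the transporter that fills synaptic vesicles with zinc, was the 1 family member called lower in each genotype. It fell by 0.56 ± 0.11 on the log2 scale in WT (adjusted p = 0.00453) and by 0.64 ± 0.08 in KO (adjusted p = 0.000302). Without WT animal 6 the adjusted p of Slc30a3 was 0.0504. Slc30a10, whose protein exports manganese, differed by -0.29 ± 0.11 in WT (adjusted p = 0.124) and by -0.27 ± 0.13 in KO (adjusted p = 0.210). The family's median difference was -0.05 in WT and 0.00 in KO, against 0.01 and 0.00 over all genes.

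The SLC39 family brings zinc into the cytosol, and 12 of its 14 genes were listed. In each genotype 3 were called higher in PI and 1 lower. The shares over all genes were 5.2% higher and 5.4% lower in WT, and 5.11% and 4.94% in KO. The family's median was 0.21 in WT and 0.25 in KO. Slc39a14, which encodes ZIP14, an importer of zinc, iron and manganese, rose by 0.75 ± 0.11 in WT (adjusted p = 0.000938) and by 0.60 ± 0.12 in KO (adjusted p = 0.00813). Slc39a1, a zinc importer of the plasma membrane, rose by 0.53 ± 0.10 in WT (adjusted p = 0.00469) and by 0.56 ± 0.09 in KO (adjusted p = 0.00165). Slc39a6 was called higher in WT (0.28 ± 0.07, adjusted p = 0.0212) and stood at 0.26 ± 0.10 in KO (adjusted p = 0.126). Slc39a7, which releases zinc from the endoplasmic reticulum, was called higher in KO (0.41 ± 0.11, adjusted p = 0.0311) and stood at 0.34 ± 0.12 in WT (adjusted p = 0.0883). Slc39a12, a brain-enriched zinc importer, fell by 0.76 ± 0.11 in WT (adjusted p = 0.000756) and by 0.55 ± 0.09 in KO (adjusted p = 0.00266). Some of these calls were lost when 1 animal was left out: that of Slc39a14 in KO without animal 2, 3 or 5 (adjusted p up to 0.0719), that of Slc39a6 without any WT animal other than animal 2 (up to 0.0830) and that of Slc39a7 without KO animal 1, 2, 3 or 5 (up to 0.150). Slc39a7 was also not called in KO under a prior variance without a trend (adjusted p = 0.0572).

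**Figure D4:**
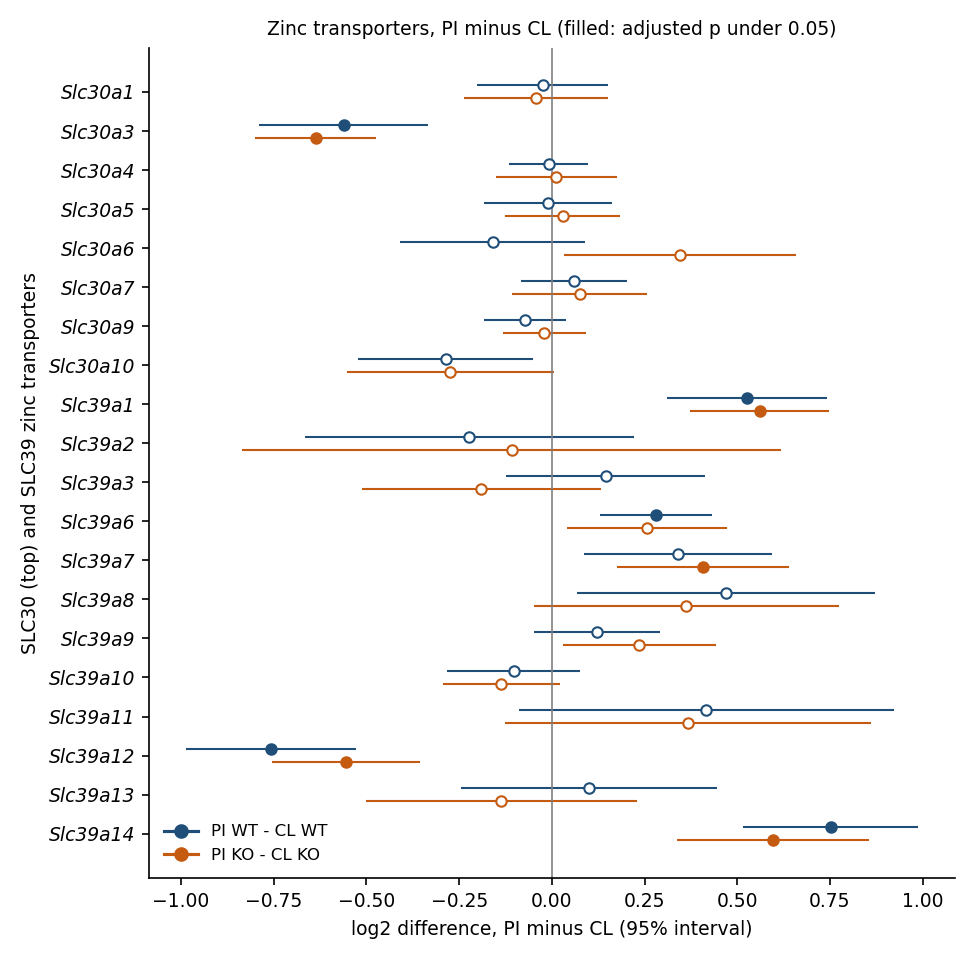
Log2 difference between PI and CL (horizontal axis) with its 95% interval for the listed SLC30 and SLC39 genes in WT (blue) and KO (orange); filled points had an adjusted p under 0.05. Slc30a3 and Slc39a12 lie to the left in both genotypes, Slc39a1 and Slc39a14 to the right, and Slc30a1 sits at -0.02 and -0.04.

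Mtf1, the gene of the metal-sensing factor, was not called, at -0.06 ± 0.08 in WT (adjusted p = 0.711) and 0.06 ± 0.10 in KO (adjusted p = 0.777). The fourth metallothionein gene, Mt4, which lies 13.6 kb before Mt3 and is a form of stratified epithelia, had no row in the tables. Metallothioneins also bind copper. Of the 10 listed genes of copper handling (uptake, chaperones, export and the copper enzyme gene Sod1), 0 were called in either genotype by the trimmed-mean test. At an unadjusted p under 0.05 there were 0 in WT and 2 in KO, Commd1 and Sod1. That level was reached by 23.9% and 24.9% of all genes. The median of the copper genes was 0.03 in WT and 0.22 in KO.

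Of 16 factors and reporters of the other signals that act on metallothionein genes, 7 were called higher in PI and 1 lower in WT, and 9 were called higher and 0 lower in KO. Over all genes 5.2% were called higher and 5.4% lower in WT, and 5.11% and 4.94% in KO. The median of the list was 0.31 in WT and 0.38 in KO. Stat3, the transcription factor of the interleukin-6 branch, rose by 1.15 ± 0.09 in WT (adjusted p = 1.95e-05) and by 1.18 ± 0.10 in KO (adjusted p = 1.99e-05). Osmr, a receptor chain for oncostatin M, rose by 2.51 ± 0.24 in WT (adjusted p = 6.35e-05) and by 2.62 ± 0.20 in KO (adjusted p = 1.10e-05). Socs3, a STAT3 target that damps the pathway, rose by 2.43 ± 0.26 in WT (adjusted p = 0.000115) and by 2.35 ± 0.29 in KO (adjusted p = 0.000423). The receptor chains of that branch differed less: Il6st stood at 0.31 in WT (adjusted p = 0.00659) and 0.27 in KO (adjusted p = 0.0272), and Il6ra at 0.03 and -0.13, not called. In the oxidative stress branch, Hmox1, the heme oxygenase gene, had the largest difference of the list, with a rise of 2.78 ± 0.36 in WT (adjusted p = 0.000448) and of 2.76 ± 0.35 in KO (adjusted p = 0.000452). Srxn1, another reporter of that branch, rose by 0.75 ± 0.09 in WT (adjusted p = 0.000281) and by 0.76 ± 0.06 in KO (adjusted p = 1.47e-05). In KO the calls of Gclm and Txnrd1 were lost in 3 of the 6 fits that leave out 1 animal (adjusted p up to 0.0993 and 0.117), and those of Il6st and Nfe2l2 in 4 of 6 (up to 0.152 and 0.136). All 4 of these KO calls were also lost without the trend. Nr3c1, the glucocorticoid receptor gene, fell by 0.24 ± 0.07 in WT (adjusted p = 0.0470), a call lost without any 1 of the 6 animals (adjusted p 0.0540 to 0.135) and without the trend (0.137), and stood at -0.18 ± 0.09 in KO (adjusted p = 0.256). The glucocorticoid target genes Fkbp5, Tsc22d3, Sgk1 and Per1 were not called in either genotype, with differences from -0.28 to 0.26. No gene of these lists was called between genotypes or in the difference of the changes.

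Markers of several cell types moved between CL and PI together with Mt1 and Mt2. For the counts below, the shares of all genes called were 5.2% higher and 5.4% lower in WT, and 5.11% and 4.94% in KO. Markers of reactive astrocytes, the state astrocytes enter after injury, were called higher in 10 of 11 listed genes in WT and in 9 of 10 in KO; Osmr is in this list as well as in the one above. Their summed level was 111 to 137 CPM in CL WT and 455 to 526 in PI WT, while in KO it was 109 to 126 CPM in CL and 431 to 613 in PI. Of the 10 general astrocyte markers, 1 was called higher and 3 lower in WT, and 1 higher and 1 lower in KO. The water channel gene Aqp4 was the one called higher, by 0.27 in WT and 0.41 in KO. The gap junction gene Gja1 was called lower in both, at -0.35 and -0.43. The glutamate transporter gene Slc1a2, at a mean of 12.71 log2 CPM in CL WT, makes up most of the summed level of this list and differed by -0.23 in WT (adjusted p = 0.0211) and -0.23 in KO (adjusted p = 0.0572). The sum was 7651 to 8055 CPM in CL WT and 6670 to 7075 in PI WT, while in KO it was 7676 to 8178 in CL and 6461 to 7162 in PI. Microglial markers were called higher in 6 of 10 and lower in 1 of 10 in both genotypes, with sums of 190 to 202 CPM in CL WT against 220 to 247 in PI WT. Of the 10 endothelial markers 0 were called higher and 1 lower, in KO, by the trimmed-mean test, with 4 in WT and 3 in KO at an unadjusted p under 0.05, where 23.9% and 24.9% of all genes were. In WT 9 of these 10 markers lay above 0 and 1 below, with a median difference of 0.44. In KO 8 lay above 0 and 2 below, with a median of 0.14. Their sums overlapped in WT, at 97.5 to 141 CPM in CL and 100 to 148 in PI. Neuronal markers were called lower in 5 of 14 in each genotype and higher in 0 of 14 in WT and 1 of 14, Gad2, in KO, and their sum was 10520 to 11154 CPM in CL WT and 9080 to 9909 in PI WT. None of the 13 neutrophil and monocyte markers was listed in the tables of PI and CL. In PI KO against PI WT 2 of them, S100a8 and S100a9, were listed. Neither was called there by the trimmed-mean test, with 1 at an unadjusted p under 0.05 and differences of 0.77 and 1.16. Their sum was 3.39 to 9.32 CPM in PI KO and 2.20 to 4.12 in PI WT. Oligodendrocyte markers were called lower in 2 of 10 in WT and 0 of 10 in KO (1 at an unadjusted p under 0.05), with sums of 2307 to 2520 CPM in CL WT against 1628 to 2271 in PI WT, and of 1833 to 2496 in CL KO against 1796 to 2028 in PI KO. Of the 10 choroid plexus markers 2 were listed, and 1 of them, Enpp2, was called lower in both genotypes, at -0.69 in WT and -0.62 in KO. The sum of these 2 genes was 321 to 348 CPM in CL WT and 193 to 222 in PI WT, while in KO it was 330 to 354 in CL and 219 to 225 in PI. The sums of the 4 listed red cell genes overlapped, at 12.3 to 52.1 CPM in CL WT and 30.0 to 50.4 in PI WT. The part of these cell types in the changes of the members, and of neurons in that of Slc30a3, was not tested.

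Genes with the most similar profile were ranked by the smaller of their correlations with a member over the 12 WT libraries and over the 12 KO libraries, among 14210 other genes. The libraries fall into PI and CL and share their depth and scaling, so any gene that differs strongly between CL and PI correlates with any other. The correlations use the deposited values, whose spread within a group is too small, which raises r for such genes further. For Mt1 the closest was Mt2, with r of 0.979 in WT and 0.984 in KO, and then Lcn2, Dab2, Amotl1 and S100a16. For Mt2 they were Dab2 (0.992 in WT and 0.989 in KO), Gfap, Cnn3, Ifit1 and Amotl1, and Mt1 came at rank 11. Gfap, the intermediate filament of reactive astrocytes, and Lcn2, a secreted protein of the same state, are both in the reactive astrocyte list. For Mt3 the closest were Poc5 (0.830 and 0.793), Glrx5, Rnf182, Phpt1 and Rpn2, none of them called between CL and PI. For Slc30a1 the closest gene, Gm37578, reached 0.590 and 0.704, and Gm43266, Armc1, Gm43484 and Clgn followed. With Mt2, Mt3 had r of 0.54 in WT and 0.05 in KO, and Slc30a1 had -0.09 and -0.22.

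Genes around the members were examined to see how far along the chromosome the differences reached. Beside the metallothionein cluster, the nearest listed genes were Bbs2, Ogfod1 and Nudt21 on 1 side and Nup93, Herpud1 and Cpne2 on the other. Bbs2, 38.3 kb from Mt4 at the outer end of the cluster, differed by -0.18 ± 0.10 in WT (adjusted p = 0.311) and by 0.02 ± 0.13 in KO (adjusted p = 0.943). Nup93, 34.2 kb from Mt1 on the other side, differed by 0.27 ± 0.12 in WT (adjusted p = 0.202) and by 0.19 ± 0.10 in KO (adjusted p = 0.258). None of these 6 genes, and none of the 6 listed neighbours of Slc30a1 (Lpgat1, Ints7, Dtl, Traf5, Rcor3 and Gm10516), was called in any of the 4 comparisons. The antisense gene 1700034H15Rik, which overlaps Slc30a1, differed by 0.11 ± 0.25 in WT (adjusted p = 0.838) and by 0.02 ± 0.31 in KO (adjusted p = 0.976).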

How the data were processed

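Log2 CPM per gene in 4 tables of 12 libraries, 1 for each pair of groups, were deposited by the authors. The build is mm10 per the submitters' processing notes; aligner, counting, use of strand and scaling are not given in the sources used here. Samples were grouped by their labels, and no column was unused (0). In the deposited log2 values the ends of each gene and group are tied at its quartiles (100% of genes), so 4 inner values per group were solved from the ties. Their trimmed mean was tested with its Winsorized sum of squares (6 degrees of freedom for 2 groups, 12 for 4) in limma 3.58.1 (R 4.3.3; empirical Bayes with a trend), two-sided, with Benjamini-Hochberg adjustment over the whole table and calls at an adjusted p under 0.05. This test treated the libraries as independent and did not use the pairing of CL and PI from 1 animal. The procedure was tested on simulated data.

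The members, gene lists and tests were chosen with earlier results of these data known. From each list, up to 4 called genes per direction with the smallest p were named, besides the members, Mtf1 and Slc30a10, and for each member the 5 most similar genes; other names were chosen after their values were seen. Titles give CL and PI of 1 animal the same number: within these pairs the deviations from the group means correlated at -0.14 to 0.331 in WT and -0.00928 to 0.166 in KO. The PI library correlated best with the CL library of its own number for WT animals 1, 2, 3 and 6. In KO this held for animals 4 and 6. Low values were whole reads within 0.1 read in 81.9% to 92.2% of cases, which gave the depth. Alternatives were limma on the deposited values with and without the block, no trend, centred groups, a filter at 1 CPM, log2(CPM + 0.5) and leaving out each animal number.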

Additional observations from a re-analysis of the deposited data

How the results depend on the processing

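The rise of Mt1 and Mt2 in PI kept its direction and call under every alternative run. When 1 animal number was left out, Mt1 ran from 1.12 to 1.33 in WT and from 1.19 to 1.27 in KO, and Mt2 from 1.79 to 1.99 and from 2.29 to 2.45. Limma on the deposited values, whose spread is too small, called 6459 genes in PI WT against CL WT, 6666 in PI KO against CL KO, 2388 in PI KO against PI WT, 2311 in CL KO against CL WT and 1940 in the interaction. With the replicate block the counts were 6614, 6759, 1800, 1868 and 1895. These 2 fits also called Mt3 in PI WT against CL WT (0.28) and Mt2 in CL KO against CL WT (-0.44, adjusted p = 0.00721 with the block); the former called the Mt2 interaction (0.48, adjusted p = 0.0512 with the block) and the latter the Mt3 interaction (-0.28, adjusted p = 0.0124), and the block changed no other member's call from that of limma without it. Without the trend 1015 and 739 genes were called in WT and KO. Leaving out 1 animal number gave 770 to 1300 calls in WT (fewest without animal 6, and over 1.5 times fewer also without 1, 3 or 5), 539 to 1458 in KO (fewest without animal 5, and over 1.5 times fewer also without 2 or 3), 1 to 7 in PI KO against PI WT, 3 to 9 in CL KO against CL WT and 0 to 1 in the interaction. Centring the groups turned the uncalled Mt3 difference in KO to -0.0310. Other uncalled differences changed sign when 1 animal number was left out: Slc30a1 in PI WT against CL WT (-0.0800 to 0.0376), Mt3 in PI KO against CL KO (-0.0436 to 0.0479), Slc30a1 in PI KO against CL KO (-0.117 to 0.0239), Mt1 in PI KO against PI WT (-0.141 to 0.0986), Mt2 in PI KO against PI WT (-0.0616 to 0.147), Slc30a1 in PI KO against PI WT (-0.119 to 0.00646), Mt1 in CL KO against CL WT (-0.0488 to 0.0248), Slc30a1 in CL KO against CL WT (-0.100 to 0.0333), Mt1 in the interaction (-0.0906 to 0.10), Slc30a1 in the interaction (-0.0816 to 0.104). KO and WT animals are not paired by number: same-number correlations were -0.229 to 0.151, and no library correlated best with its own number. The filter at 1 CPM removed 0 genes. Since the ends of each group are tied, no single outlying library can be seen, and the true extremes are unknown.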
